A study of Saccharomyces cerevisiae with 12 samples.

Results

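Convergent intergenic regions lie between 2 neighbouring protein-coding genes that are transcribed towards each other. Taken from the R64 annotation, 1476 of the 5709 stretches between neighbouring reading frames were of this kind, with the left frame on the plus strand and the right frame on the minus strand. The 1442 of them that were at least 50 bp long were studied, out of 5637 intergenic regions of that length, with chromosome III left out. The rule used annotation alone, but it was set with earlier results of these data known. Stretches of at least 100 bp without a hit in any library were masked, which left 9 of the 1442 with fewer than 50 usable bases. Thus 1433 were counted and 1429 passed the filter on low counts. The members were short, with a median length of 236 bp (interquartile range 147.25 to 356 bp, longest 8042 bp), against 404 bp for tandem and 526 bp for divergent regions. They were also poor in G and C, with a median of 29.2% against 33.9% for tandem regions, 36.1% for divergent regions and 39.7% for reading frames.

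Top2, the type II topoisomerase of budding yeast, cuts both strands of a duplex, stays covalently bound to the 5′ ends by a tyrosine, passes another duplex through the gap and reseals it. VP16 (etoposide) slows resealing and so holds the enzyme on the cut DNA. Transcription pushes positive supercoils ahead of RNA polymerase, and between convergent genes the waves from both sides meet. Such a region holds the 3′ ends and terminators of both genes and the promoter of neither, whereas a tandem region holds 1 promoter and a divergent region holds 2. In yeast, cohesin is also known to gather between convergent genes.

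CC-seq, which recovers DNA ends still bound to protein and maps each to a nucleotide and strand, was applied to dividing BY4741-background cells in rich medium. Each hit counts 1 read pair that maps such an end, and several hits may come from the same end. The libraries came from cells given 1 mM VP16 for 4 h and from untreated cells, which were kept for the same 4 h in 2% DMSO. Each treatment was applied to the strains pdr1, pdr1sae2 and pdr1mre11, with 2 biological replicates per group and 12 libraries in all, and every strain carried at PDR1 the cassette that makes yeast sensitive to the drug. SAE2 and MRE11 encode factors that help to remove protein from DNA ends. Over the whole of MRE11, pdr1mre11 libraries held 36 and 33 hits with VP16 and 20 and 5 untreated, against 106 to 424 in the other 8 libraries. Over the whole of SAE2, pdr1sae2 libraries held 90 and 162 hits with VP16 and 66 and 32 untreated, which overlapped the 163 and 158 with VP16 and 262 and 62 untreated of pdr1, so that the whole gene does not check this label. A part of SAE2 chosen after its hits were seen (chrVII:173700-174218) held 1 to 4 hits in pdr1sae2 libraries and 21 to 170 in the other 8. Libraries held 1073764 to 2947575 nuclear hits with VP16 and 685100 to 3463679 when untreated, and replicate 2 of each untreated group was the shallower one. Hit density is given as HpKM, hits per kb of usable sequence per 1000000 nuclear hits of the library, or relative to the library's mean over the nuclear genome. A culture average cannot tell more cut cells apart from more cuts per cell.

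The sequences of 7 sites show what the strongest positions looked like. A double cut by Top2 leaves a Watson hit and a Crick hit 3 bp apart, with 4 bases between the cut bonds. For the 6 regions with the largest rises, and for HOS3-BEM3, which was among the 4 densest regions with VP16, the 3 bp offset site with most VP16 hits is shown in 40 bp of the plus strand of R64 as given by RefSeq, 5′ to 3′, with the 4 bases between the cut bonds in capitals.
NAT5-SEC63, chrXV:804891-804930: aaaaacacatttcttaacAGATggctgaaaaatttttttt
GPP1-RPL34B, chrIX:256052-256091: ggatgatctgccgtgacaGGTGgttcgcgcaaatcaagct
RRP45-PHM6, chrIV:1021804-1021843: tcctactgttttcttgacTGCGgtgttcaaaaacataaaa
YOS9-TGL2, chrIV:567639-567678: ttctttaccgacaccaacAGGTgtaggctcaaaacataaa
HYM1-PXA2, chrXI:85931-85970: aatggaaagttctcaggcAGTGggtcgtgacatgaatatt
HSC82-YMR187C, chrXIII:634576-634615: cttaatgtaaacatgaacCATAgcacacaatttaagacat
HOS3-BEM3, chrXVI:331835-331874: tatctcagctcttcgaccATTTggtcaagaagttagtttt
All of these sites had a G just after the capitals, which is a C just 5′ of the cut bond when read on the Crick strand. A C stood just before the capitals at every one except GPP1-RPL34B, which has an A there.

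A C next to the cut bond marked VP16 hits in convergent regions. With VP16, a mean of 54.1% of the hits in members (40.6 to 60.4% over 6 libraries) had a C just 5′ of the cut bond on their own strand, against 17.3% of hits (16.4 to 18%) in untreated libraries and 15.4% of all bases in the regions. The difference was 36.7 percentage points, with a within-group SD of 5.68 points, and was positive in all 3 strains (two-sided exact permutation within strain, 216 arrangements, p = 0.00926, the smallest they can give, adjusted p = 0.0139 over 12 tests). With each position counted once, so that a strong site weighs no more than a weak one, the difference was 23.2 points (exact permutation p = 0.00926). On the other side of the cut, base 5 from the hit, which is where the partner strand has the same position, was G for 32.1% of VP16 hits (24.1 to 40.4%) and 16.1% of untreated hits (15.4 to 17.1%). Tandem regions had 58.5% C with VP16 and 20.0% in untreated libraries, where C makes up 17.4% of the bases. Among 1429 members, the strongest VP16 site had a C before the Watson bond or a G after the Crick bond in 88.8%, and the strongest untreated site in 30.3%. The hits were spread evenly over both strands, with 49.4 to 49.9% on Watson in VP16 libraries and 49.9 to 50.4% in untreated ones.

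Convergent regions as a class gained hits over reading frames and lost them against tandem intergenic regions. Their summed density was 104.9 ± 3.27 HpKM in pdr1 with VP16 and 90.4 ± 8.85 in untreated pdr1 (SD, n = 2 each). In pdr1sae2 it was 103.3 ± 0.775 with VP16 and 86.4 ± 5.52 untreated, and in pdr1mre11 98.7 ± 12.5 with VP16 and 91.8 ± 7.19 untreated (SD, n = 2 each). Relative to reading frames, the log2 density of members averaged 0.54 (0.36 to 0.72) with VP16 and 0.10 (-0.04 to 0.25) in untreated libraries, with no overlap between the treatments. The difference of 0.44 (within-group SD 0.15) had an exact permutation p of 0.00926 and an adjusted p of 0.0139 over the 12 tests. It was 0.62 between replicate 1 libraries and 0.25 between replicate 2 libraries.

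Against tandem regions the order was the other way. The log2 density of members over tandem regions averaged -0.44 (-0.64 to -0.29) with VP16 and -0.13 (-0.23 to -0.03) in untreated libraries, a difference of -0.32 (within-group SD 0.08; exact permutation p = 0.00926, adjusted p = 0.0139), negative in all 6 same-numbered comparisons. With each position counted once it was -0.13 (exact permutation p = 0.00926). Relative to the last 300 bp of the reading frames on both sides, VP16 and untreated libraries overlapped, with means of 0.17 (0.02 to 0.30) with VP16 and 0.09 (-0.02 to 0.19) untreated. That difference of 0.08 (within-group SD 0.11) did not pass the test (exact permutation p = 0.194, adjusted p = 0.194).

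**Figure D1:**
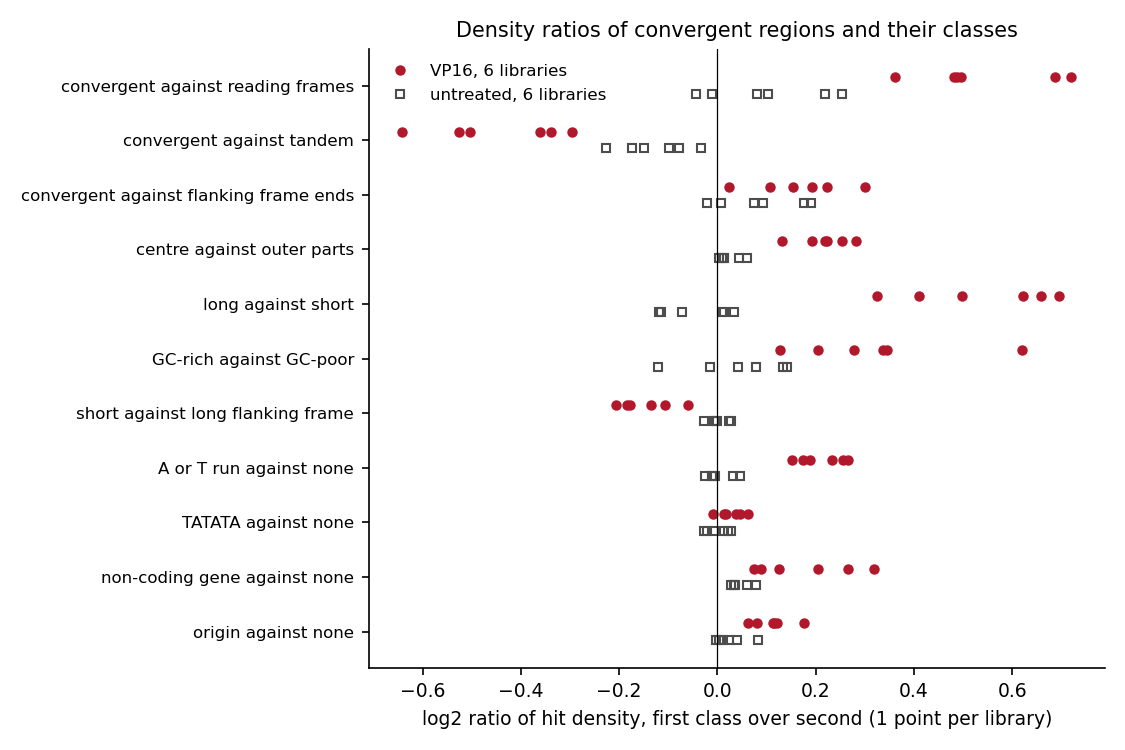
Log2 ratios of hit density, the first class named over the second, with 1 point per library (x axis) for 11 comparisons (y axis); filled circles are the 6 VP16 libraries and open squares the 6 untreated libraries. The ratio of long to short convergent regions runs from 0.32 to 0.70 with VP16 and from -0.12 to 0.03 in untreated libraries, the widest gap among the comparisons within members.

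Region by region, gains and losses relative to the middle of each library were nearly balanced, as they were over all regions. Of the 1429 members tested, 368 rose and 387 fell under VP16 (edgeR's quasi-likelihood test over all 11302 reading frames and intergenic regions, Benjamini-Hochberg adjusted p under 0.05, TMM scaling). Over all regions tested, 34.4% rose and 33.3% fell, against 25.8% and 27.1% of the members, 64.3% and 7.43% of tandem regions and 13.5% and 54.5% of reading frames. The median log2 change was -0.06 in members, 0.50 in tandem regions, -0.30 in reading frames and 0.00 in all regions. With any 1 library left out, 311 to 382 members rose and 323 to 419 fell. All 6 VP16 libraries lay above all 6 untreated ones, as a share of nuclear hits, in 172 members, and below them in 86, against 21.5% and 16.1% of all regions. The deposited maps do not fix the total amount of Top2 cutting, and rises and falls are relative to the middle of each library. With the authors' spike-in factors as library sizes, the median of all regions moved to 1.42 and that of members to 1.36. In that fit 1221 members rose and 4 fell, where 94.5% of all regions rose. Of the 387 members called fallen above, 41 kept a negative log2 change in that fit.

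No member was shown to respond differently in the 3 strains. None passed the edgeR test of a treatment effect differing between strains after Benjamini-Hochberg adjustment, where 0.00885% of all regions did. At an unadjusted p under 0.05 there were 53 of the 1429 members tested, fewer than that threshold would be expected to pass if no member differed. DESeq2 called 0 after adjustment and 16 unadjusted. Of the members called in replicate 1 libraries alone, 329 of 364 risers moved the same way between replicate 2 libraries, as did 216 of the 229 fallers measured there out of 240 called, with median log2 changes of 0.41 and -0.80 there. Over 1402 members, the log2 changes from replicate 1 and from replicate 2 had a Spearman's correlation of 0.78, given as a description.

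Length separated the regions that gained from those that lost. Risen members had a median length of 350.5 bp (interquartile range 244.5 to 575.5 bp) and fallen members one of 168 bp (115 to 257 bp), with 227.5 bp for those not called. Ranked by length and split into 3 classes of near-equal number (tertiles), the members differed between classes. In the longest tertile, above 304 bp, 227 of 478 rose and 65 fell, with a median log2 change of 0.24. In the shortest tertile, up to 173 bp, 41 of 477 rose and 205 fell, with a median log2 change of -0.45. Both shares can be read against the 34.4% and 33.3% of all regions. Spearman's correlation between length and log2 change was 0.43 over 1429 members, as a description. Long regions also hold more hits, which makes a call easier: the 12 libraries together gave a median of 973.5 hits to risen members, 275 to fallen ones and 423.5 to those not called.

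**Figure D2:**
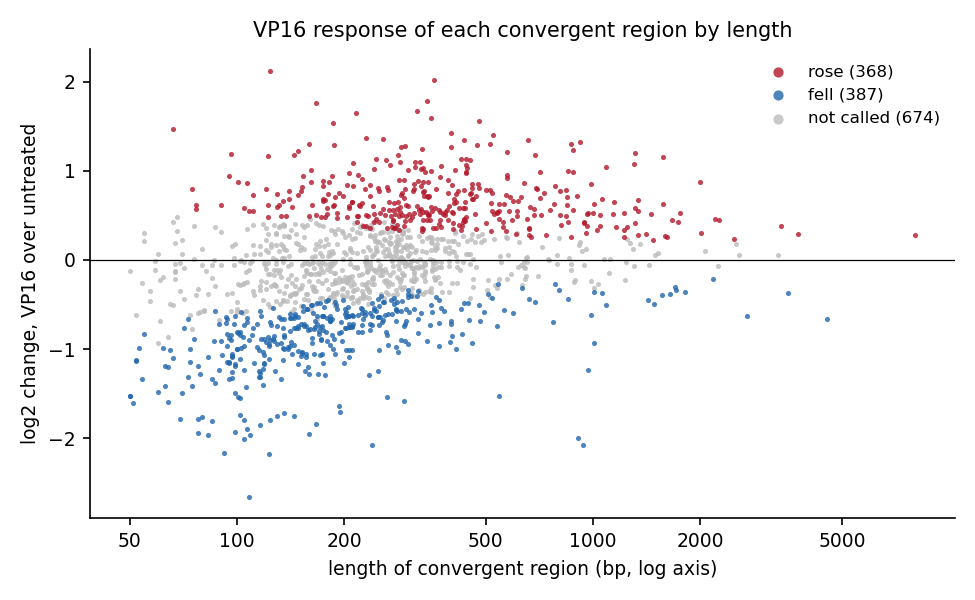
Log2 change under VP16 (y axis) against length in bp (x axis, log scale) for each of 1429 convergent regions, coloured by call. The 368 that rose lie mostly at greater lengths than the 387 that fell, with median lengths of 350.5 and 168 bp.

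The summed density of a length class does not depend on calls and showed the same order. The log2 ratio of the longest to the shortest tertile averaged 0.53 (0.32 to 0.70) with VP16 and -0.04 (-0.12 to 0.03) in untreated libraries. Long and short regions thus had like densities without the drug. The difference of 0.58 (within-group SD 0.11) was positive in all 6 same-numbered comparisons, at 0.61 in pdr1, 0.43 in pdr1sae2 and 0.69 in pdr1mre11 (exact permutation p = 0.00926, adjusted p = 0.0139). With each position counted once it was 0.28 (exact permutation p = 0.00926). Long regions were richer in G and C (median 30.9% against 27.3%). Within the middle tertile of GC content, a comparison added after seeing the data, 169 long and 124 short regions differed by 0.56 (within-group SD 0.18, exact permutation p = 0.00926).

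In finer steps, members of 50 to 99 bp had 0.829 times the library's mean density with VP16 (0.669 to 0.945) and 1.10 times in untreated libraries (1.03 to 1.15). At 100 to 199 bp the values were 0.929 (0.789 to 1.04) with VP16 and 1.04 (0.966 to 1.10) untreated. The density with VP16 was highest at 400 to 599 bp, 1.39 (1.21 to 1.51) against 1.04 (0.944 to 1.15) untreated, and it was 1.19 (1.11 to 1.30) at 1000 bp and longer, against 1.03 (0.962 to 1.11) untreated. Untreated densities stayed between 1.01 and 1.10 in every step.

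The deficit against tandem regions was also found at matched length. Tandem regions of 100 to 199 bp had 2.01 times the mean density with VP16 (1.72 to 2.30) and 1.24 times in untreated libraries (1.15 to 1.43). At that length the log2 density of 450 members over 167 tandem regions averaged -1.11 (-1.41 to -0.73) with VP16 and -0.26 (-0.48 to -0.09) untreated, a difference of -0.85 (within-group SD 0.19). From 100 bp up the difference shrank with length, at -0.62 for 200 to 299 bp, -0.39 for 300 to 399 bp, -0.22 for 400 to 599 bp and -0.16 for 600 to 999 bp. Each of these had an exact permutation p of 0.00926. From 1000 bp on, 74 members and 336 tandem regions differed by -0.04 (within-group SD 0.05, exact permutation p = 0.241). These length-matched comparisons were added after seeing the data, and with 15 added tests the adjusted p-values were 0.0154 for the first 5 and 0.258 for the last. Regions of 50 to 99 bp were not compared. The 24 tandem regions of that length had 0.945 times the mean density with VP16 (0.812 to 1.10) and 1.02 untreated (0.825 to 1.11).

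**Figure D3:**
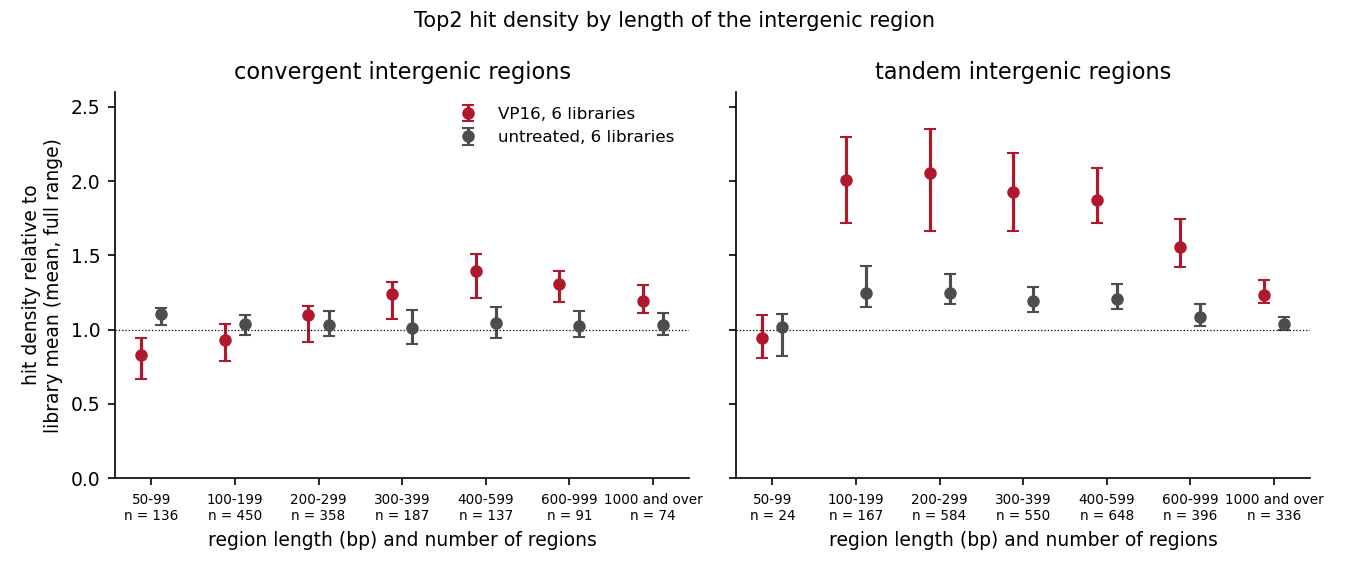
Hit density relative to the library's mean (y axis) by region length in bp (x axis, with the number of regions), for convergent regions on the left and tandem regions on the right; points are means and bars the full range of 6 VP16 (left of each pair) and 6 untreated libraries. With VP16, convergent regions of 100 to 199 bp sit at 0.929 and tandem regions of that length at 2.01.

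Within long members, the gain lay away from the stop codons. In the longest tertile, density with VP16 was 1.02 times the mean (0.887 to 1.16) in the first 20 bp after the stop codon and 0.997 (0.933 to 1.10) in untreated libraries. At 140 to 159 bp past the stop codon it was 1.58 (1.41 to 1.76) with VP16 and 0.983 (0.885 to 1.10) untreated, and at 200 to 219 bp 1.52 (1.36 to 1.74) with VP16 and 1.03 (0.951 to 1.11) untreated. Over the 1064 members of at least 150 bp, the log2 density of the central part over the outer parts, each part of equal length, averaged 0.22 (0.13 to 0.28) with VP16 and 0.02 (0.00 to 0.06) untreated. The difference of 0.19 (within-group SD 0.04) was positive in all 6 same-numbered comparisons (exact permutation p = 0.00926, adjusted p = 0.0139).

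Inside the frames flanking all members, density at 21 to 40 bp before the stop codon was 1.14 (1.11 to 1.18) with VP16 and 0.927 (0.883 to 0.986) untreated. In a comparison added after seeing the data, members of the longest tertile gained over the frame ends beside them, by 0.21 (within-group SD 0.12, exact permutation p = 0.0185). Members of the shortest tertile went the other way, by -0.33 (within-group SD 0.11, exact permutation p = 0.00926). The adjusted p-values over the 15 added tests were 0.0278 and 0.0154.

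**Figure D4:**
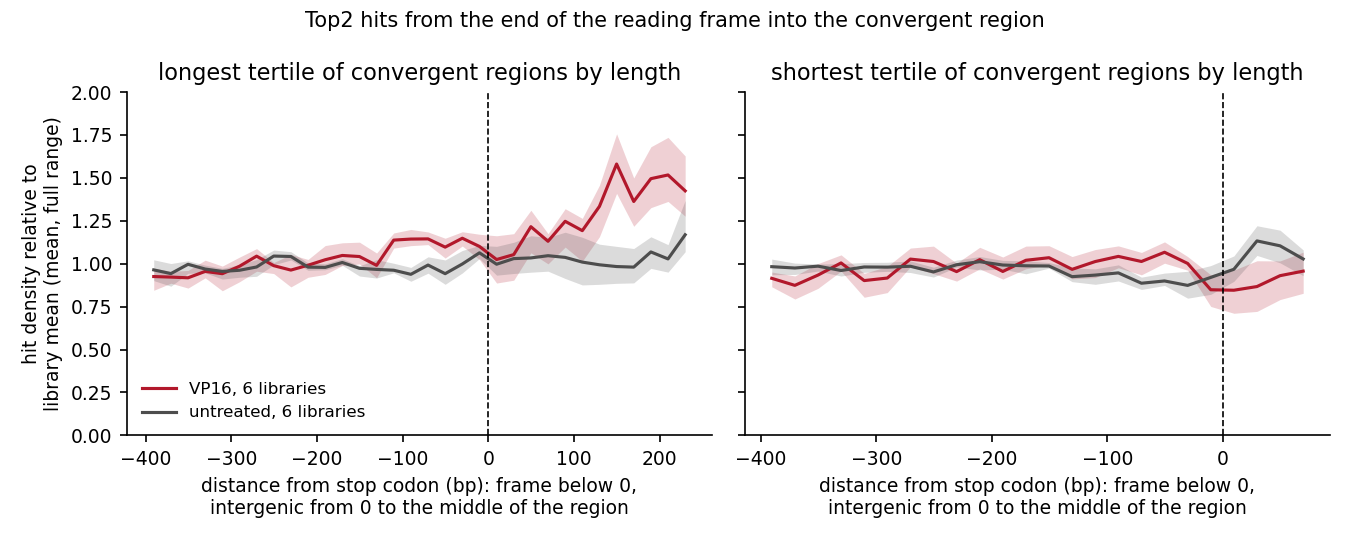
Hit density relative to the library's mean (y axis) by distance from the stop codon in bp (x axis), in 20 bp steps, inside the frame below 0 and in the convergent region from 0 to its middle; lines are means and bands the full range of 6 VP16 and 6 untreated libraries. In the longest tertile the VP16 line reaches 1.58 at 140 to 159 bp, against 0.983 untreated, and in the shortest tertile it stays below 1 between the frames.

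Other features marked gaining regions less strongly, and most of the classes they define differ in length too. Members with the highest GC content (above 31.0%, 478 regions, median length 295 bp) gained 0.28 over those with the lowest (up to 27.2%, 478 regions, median length 173.5 bp), with log2 ratios of 0.32 (0.13 to 0.62) with VP16 and 0.04 (-0.12 to 0.14) untreated (within-group SD 0.13, exact permutation p = 0.0185, adjusted p = 0.0222). Replicate 1 libraries alone differed by 0.15 and replicate 2 libraries alone by 0.40. The call was lost with the replicate number as a block (exact permutation p = 0.0625) and with each position counted once, where the difference was 0.12 (exact permutation p = 0.0648). Within the middle length tertile the difference was 0.16 (exact permutation p = 0.111), and within the longest tertile 0.12 (p = 0.222, exact permutation). A run of at least 8 A or 8 T stood in 579 of 1433 members (40.4%), against 52.5% of tandem and 50.6% of divergent regions. Members with such a run gained 0.21 over those without (within-group SD 0.04, exact permutation p = 0.00926, adjusted p = 0.0139). Of members with a run 36.3% rose, near the 34.4% of all regions, and 18.6% of those without. Median lengths were 298 bp with a run and 189 bp without. With each position counted once the difference was 0.10 and in the middle length tertile 0.12 (exact permutation p = 0.00926 for both), and in the longest tertile it was 0.05 (exact permutation p = 0.0370, adjusted p = 0.0505 over the added tests).

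The hexamer TATATA, which reads the same on both strands, stood in 961 members (67.1%), 63.9% of tandem and 47.3% of divergent regions. Members with it differed from those without by 0.03 (within-group SD 0.02, exact permutation p = 0.0370, adjusted p = 0.0404), with median lengths of 261 and 193.5 bp. The call was lost in 7 of the 12 comparisons without 1 library, with the replicate number as a block (exact permutation p = 0.125), with each position counted once (0.02, exact permutation p = 0.204) and in the middle length tertile (0.01, exact permutation p = 0.806), and the difference was -0.05 in the longest tertile. AATAAA, searched on both strands and able to overlap an A run, stood in 987 members (68.9%), 72.4% of tandem and 71.4% of divergent regions. Of the 986 tested members with it 296 rose (30.0%) and 234 fell (23.7%), where 34.4% and 33.3% of all regions did. Members with it had a median log2 change of 0.00 and a median length of 281 bp. Without it 72 of 443 rose (16.3%) and 153 fell (34.5%), with a median of -0.25 and 153 bp.

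The size of the neighbouring genes was a weaker mark, and its classes differed little in region length. Members whose shorter flanking frame was at most 619 bp had lost against those whose shorter frame was above 1046 bp, with a log2 ratio of -0.15 (-0.21 to -0.06) under VP16 and 0.00 (-0.03 to 0.03) untreated. The difference of -0.15 (within-group SD 0.03) was negative in all 6 same-numbered comparisons (exact permutation p = 0.00926, adjusted p = 0.0139). Median lengths of the regions were 231.5 and 250.5 bp. In the longest tertile of region length the difference was -0.21 (exact permutation p = 0.00926), and in the middle tertile -0.04 (p = 0.241, exact permutation). By shorter frame, the median log2 change was -0.08 up to 619 bp, -0.14 between the limits and 0.04 above 1046 bp. It was thus not ordered by frame size. The frames flanking risen members had a median log2 change of -0.12, those flanking fallen members one of -0.30, and Spearman's correlation between a member's change and the mean of its 2 frames was 0.22 over 1405 members, a description of values that share libraries.

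Genes for non-coding RNA inside the region went with gain, but also with greater region length. Of 61 members with one, 32 rose (52.5%) and 7 fell (11.5%), where 34.4% and 33.3% of all regions did, with a median log2 change of 0.26, and their median length was 1136 bp against 227.5 bp for the rest. Genes for tRNAs, which are transcribed by RNA polymerase III, lay in 44 members, of which 20 rose (45.5%) and 6 fell (13.6%). The 14 members with a snoRNA gene, whose products guide modification of ribosomal RNA, had 11 risen (78.6%) and 0 fallen, with a median log2 change of 0.48. Neither of these lists was tested on its own. Members with any non-coding gene gained 0.13 over those without (within-group SD 0.04, exact permutation p = 0.00926, adjusted p = 0.0139). With each position counted once that was 0.05 (exact permutation p = 0.0463). Within the longest tertile, 60 regions with such a gene and 418 without differed by -0.00 (exact permutation p = 0.972).

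Replication origins lay in 107 members, of which 40 rose (37.4%) and 18 fell (16.8%), the first share near the 34.4% of all regions. These gained 0.09 over members without an origin (within-group SD 0.04, exact permutation p = 0.0185, adjusted p = 0.0222). The call was lost with the replicate number as a block (exact permutation p = 0.0625) and with each position counted once, where the difference was 0.0012 (exact permutation p = 0.954). In the middle length tertile, with 37 such regions, it was 0.32 (exact permutation p = 0.00926), and in the longest the direction turned, with a difference of -0.07 (within-group SD 0.02, exact permutation p = 0.00926, adjusted p = 0.0154 over the added tests). Lists by position on the chromosome were not tested. Within 10 kb of a centromere 18 of 45 members rose (40%, near the share of all regions) and 4 fell (8.89%), with a median log2 change of 0.27 and a median length of 276 bp. Within 20 kb of a chromosome end 7 of 47 rose (14.9%) and 18 fell (38.3%), with a median of -0.22, although these regions were long (median 804 bp).

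Of the 12 largest rises, 11 are described and named by their flanking genes. In 8 of these 11 the strongest site, chosen by its VP16 hits, held 10.5 to 52.3% of the region's VP16 hits and under 10% of its untreated hits. NAT5-SEC63 (chrXV:804908-805031, 124 bp), between genes for an N-terminal acetyltransferase subunit and for an ER translocation protein, had 225.3, 364.8 and 399.8 HpKM as the lowest, median and highest VP16 library, against 55.2, 78.6 and 105.9 in untreated libraries. The groups did not overlap, and the log2 change was 2.13 ± 0.19 (SE; edgeR's quasi-likelihood test, Benjamini-Hochberg adjusted p = 3.8e-10). Its strongest site began 2 bp past the stop codon of NAT5 and held 52.3% of the region's VP16 hits and 8.41% of its untreated hits. GPP1-RPL34B (chrIX:255868-256225, 358 bp), between a glycerol-1-phosphatase gene and a ribosomal protein gene, had 327.8, 374.2 and 476.2 with VP16 against 81.0, 87.3 and 117.4 untreated, a log2 change of 2.02 ± 0.12 (SE, edgeR adjusted p = 2.3e-13). One site, 153 bp from the nearer stop codon, gave 64.2% of its VP16 hits, with 203 on Watson and 937 on Crick, the strand preceded by C. At the shown sites with a C at both bonds, hits ran from 82 on Watson and 80 on Crick (YOS9-TGL2) to 567 and 153 (HSC82-YMR187C). Whether the base set the strand was not tested.

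RRP45-PHM6 (chrIV:1021665-1022006), beside the gene for an exosome core subunit, had 234.2, 286.0 and 344.0 HpKM with VP16 against 67.9, 80.7 and 115.2 untreated. YOS9-TGL2 (chrIV:567556-567722), between genes for an ER quality-control lectin and a lipase, had 164.1, 236.4 and 356.0 with VP16 against 46.8, 73.9 and 81.1 untreated. HYM1-PXA2 (chrXI:85904-86224), beside the gene for a peroxisomal fatty acid transporter, had 214.7, 274.7 and 344.1 with VP16 against 68.2, 84.3 and 94.4 untreated. In none of these 3 did the groups overlap, and log2 changes were 1.78 ± 0.14, 1.76 ± 0.21 and 1.67 ± 0.14 (SE). Their strongest sites held 29%, 29.9% and 49.7% of the VP16 hits and 1.57%, 2.19% and 8.85% of the untreated hits.

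HSC82-YMR187C (chrXIII:634473-634688), which begins at the end of a highly expressed Hsp90 gene, was the densest member with VP16. It had 405.3, 461.2 and 704.3 HpKM with VP16 against 108.6, 134.7 and 231.2 untreated, a log2 change of 1.65 ± 0.15 (SE, edgeR adjusted p = 9.8e-10). Here a single site gave 50.8% of the VP16 hits and 52.1% of the untreated ones, with 40 to 175 hits per VP16 library and 1 to 121 per untreated library. HOS3-BEM3 (chrXVI:331700-332099), between genes for a histone deacetylase and a GTPase-activating protein, was alike, with 75% of VP16 hits and 48.7% of untreated hits at 1 site. Its density was 303.6, 369.2 and 415.9 with VP16 and 82.8, 123.8 and 168.2 untreated, and its log2 change was 1.43 ± 0.13 (SE).

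The remaining rises described had log2 changes from 1.40 to 1.56. They were TSL1-ARG81, NCP1-DOG2, GTT3-NPP2 and YOR1-BGL2. TSL1, for a subunit of the trehalose synthase, and ARG81, for a regulator of arginine metabolism, flank a region of 477 bp in which the strongest site held 10.5% of VP16 hits, the smallest share among the 11. YOR1 encodes a drug exporter whose gene is known to be a target of Pdr1, which is altered in every strain here. Over all risen members the strongest site held a median of 17.2% of VP16 hits, and 16 of 368 had more than 50% there. The median was close to this, at 15.5%, over all 1429 members tested, of which 28 had more than 50% there. With the strongest position of every region left out, 292 of the 368 were called risen again and 362 kept their direction.

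Of the 6 largest falls, 4 had most of their untreated hits, pooled over libraries, at 1 site. XPT1-SGM1 (chrX:673621-673728, 108 bp), beside the gene for a purine salvage enzyme, had 59.7, 98.2 and 161.2 HpKM with VP16 against 148.7, 596.3 and 1077 untreated. The groups overlapped, since pdr1 replicate 1 with VP16 lay above untreated pdr1 replicate 2, and the log2 change was -2.66 ± 0.30 (SE, edgeR adjusted p = 2.4e-08). A 3 bp offset site, 36 bp past the stop codon of XPT1, held 84.9% of the untreated hits. It had 170, 165 and 351 hits in replicate 1 of the untreated strains pdr1, pdr1sae2 and pdr1mre11, against 6, 12 and 49 in replicate 2. These are raw hits. The replicate 1 libraries held 2586068, 2584856 and 3463679 nuclear hits and the replicate 2 libraries 685100, 965863 and 1023337. No C stood before the Watson bond of this site and no G after its Crick bond. MOD5-RIM20 (55.4%), SHP1-PTH2 (54.5%) and BNS1-PHB2 (70.8%) likewise had most of their pooled untreated hits at 1 site that lacked both bases. The deeper replicate 1 libraries weigh most in these shares. In replicate 2 of untreated pdr1, pdr1sae2 and pdr1mre11, the MOD5-RIM20 site had 1, 2 and 3 of the region's 6, 11 and 12 hits. The SHP1-PTH2 site had 1, 3 and 4 of 10, 10 and 8 there. The BNS1-PHB2 site had 9, 8 and 39 of 23, 24 and 56. Between replicate 1 libraries the log2 change of XPT1-SGM1 was -2.97 and between replicate 2 libraries -1.75, and for MOD5-RIM20 these were -2.89 and -0.997. What made these sites strong was not tested. The other 2 had no such site, with 1.36% of the untreated hits at the strongest site of YAL064W-B-TDA8 and 16.8% at that of BUD21-ATX2.

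MOD5-RIM20 (chrXV:838961-839083), SHP1-PTH2 (chrII:112709-112800), BNS1-PHB2 (chrVII:952308-952547) and BUD21-ATX2 (chrXV:473370-473474) had log2 changes of -2.18, -2.17, -2.08 and -2.01. MOD5 encodes a tRNA-modifying enzyme and SHP1 a cofactor of Cdc48. The groups also overlapped in SHP1-PTH2 and BUD21-ATX2. Without the strongest position of each region these 4 changes were -1.60, -1.87, -1.09 and -1.79. BUD21-ATX2 rested on few hits, 2 to 8 per VP16 library and 5 to 36 per untreated library, and its log2 change was -1.57 between replicate 1 libraries and -2.48 between replicate 2 libraries. YAL064W-B-TDA8 (chrI:12427-13362, 936 bp), near a chromosome end, had 18.5, 33.6 and 60.2 HpKM with VP16 against 102.3, 132.2 and 171.9 untreated, a log2 change of -2.08 ± 0.16 (SE), with no overlap. Only 58.2% of its bases were unique over 40 bp, so the source of its hits is uncertain. Among all 387 fallen members, 21 had more than 50% of their untreated hits at 1 site, against 1 of 368 risen members. The calls rest partly on the same untreated hits. Fallen members also held fewer hits over the 12 libraries (median 275 against 973.5 in risen ones), so this contrast is only a description. With the strongest position of every region left out 320 of the 387 were called fallen again.

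**Figure D5:**
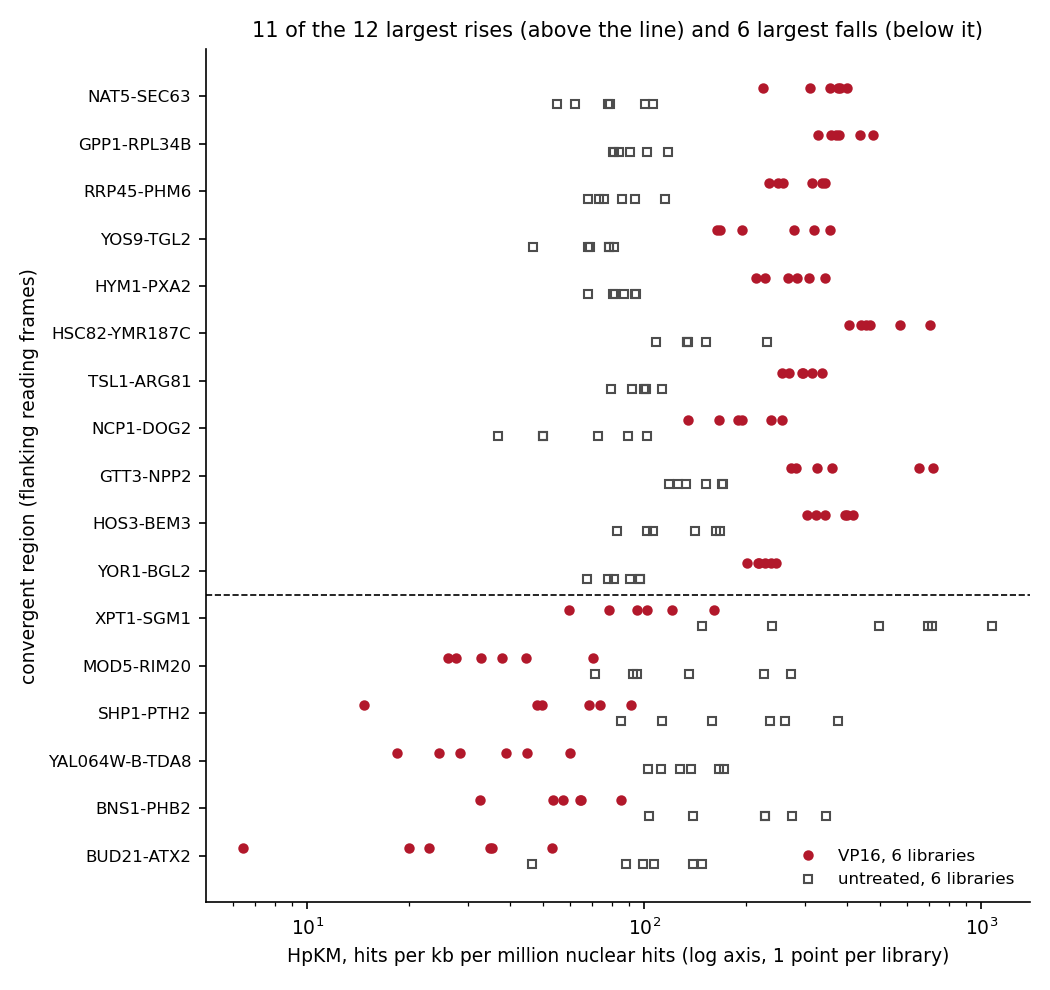
HpKM, hits per kb per 1000000 nuclear hits (x axis, log scale) in 11 of the 12 convergent regions with the largest rises and the 6 with the largest falls (y axis, named by flanking frames); filled circles are the 6 VP16 libraries and open squares below them the 6 untreated libraries. In NAT5-SEC63 all VP16 libraries lie at 225.3 or above and all untreated ones at 105.9 or below, and in XPT1-SGM1 the groups overlap.

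At the length limit, the 3 members just inside (SMX2-GNA1, ERG9-CTF8 and SMU2-POT1, each of 50 bp) held 1 to 16 hits per VP16 library and 2 to 20 per untreated library. LNP1-EGD2 and RMP1-SPE4, of 49 bp and just outside, held 1 to 10 hits per VP16 library and 1 to 18 per untreated library.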

How the data were processed

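Read pairs were aligned by the authors using Bowtie2 (version not given in the sources used here) to Cer3 with added sequence on chromosome III. Reads with several matches were kept, and rDNA, telomeric and retrotransposon sequence was removed. The authors deposited counts of 5′ ends per nucleotide and strand for 12 libraries, and their pooled maps were not used. The authors also deposited a spike-in ratio, 1 scaling factor per group, which carries no replicate error and served only as an alternative. Other chromosomes fitted the R64 lengths. Stretches of at least 100 bp without a hit in any library (537061 bp, 4.45%) were masked. Libraries held 751850 to 3646842 hits without molecular identifiers, so reads are not independent molecules.

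Watson and Crick hits were summed per region and tested in edgeR 4.0.16 (R 4.3.3; strain + treatment, TMM, filterByExpr, Benjamini-Hochberg over all regions), tested on simulated data. Classes were compared per library by exact permutation within strain over 216 arrangements. Named regions were the 12 largest rises and 6 largest falls with an adjusted p under 0.05 and 1 direction in all 6 same-numbered comparisons (pseudocount 0.5 hit), and the 4 densest with VP16; a few of the regions so chosen are not reported here. Alternatives were DESeq2 1.42.0, other scalings and filters, single replicates, a replicate block, and length-matched classes. Members and lists were chosen with earlier results of these data known.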

Additional observations from a re-analysis of the deposited data

How the results depend on the processing

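Within a strain, VP16 and untreated libraries of one number did not deviate together, so the numbers were not taken to pair them (r between 0.07, for pdr1, and -0.17, for pdr1mre11). Between strains of one treatment, replicate 1 minus replicate 2 correlated at 0.33 to 0.41 in untreated and -0.01 to 0.25 in VP16 libraries, so the libraries of a group are not fully exchangeable and the permutation p-values may be too small. With the replicate block, 370 members rose and 405 fell. The block left the value of the per-library comparisons as it was, and GC content (0.275, p = 0.0625), TATATA (0.0261, p = 0.125) and origins (0.0854, p = 0.0625) then missed the threshold in the exact permutation test over 64 arrangements. DESeq2 called 344 risen and 360 fallen. Spike-in library sizes gave 1221 and 4, at least 50 hits in every library gave 76 and 6 of 105 members tested, replicate 1 libraries alone gave 364 and 240, and replicate 2 libraries alone gave 200 and 289.

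Between replicate 1 libraries and between replicate 2 libraries, the difference was 0.623 and 0.255 for members against reading frames, 0.218 and -0.0588 against flanking frame ends, and 0.253 and 0.162 for A or T runs. With each position counted once, GC content came to 0.118, TATATA to 0.0157 and origins to 0.0012, none past the threshold. Within the middle length tertile, GC content came to 0.156, a short flanking frame to -0.0413, TATATA to 0.00664 and non-coding genes to -0.302, which rests on 1 region with such a gene and says nothing of them as a class. Within the longest tertile, an added comparison, GC content came to 0.125, TATATA to -0.046, non-coding genes to -0.000934 and origins to -0.0735. Members against frame ends came to 0.213 in the longest tertile and -0.328 in the shortest, and members against tandem regions to -0.038 from 1000 bp on. The causes were not tested.

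Leaving out 1 library at a time gave 311 to 382 risen and 323 to 419 fallen members. The difference ran from 0.379 to 0.499 against reading frames, -0.346 to -0.29 against tandem regions, 0.0336 to 0.126 against frame ends, 0.178 to 0.208 for central over outer parts, 0.528 to 0.623 for long over short, 0.228 to 0.323 for GC content, -0.159 to -0.135 for a short flanking frame, 0.19 to 0.225 for A or T runs, 0.113 to 0.156 for non-coding genes, 0.0713 to 0.0996 for origins and 34.2 to 39.2 points for C before the bond. For TATATA it ran from 0.0179 to 0.0342 and missed the threshold in 7 of 12. The other 267 alternative values were taken as unchanged. They kept the direction and the side of the threshold or, for counts, stayed within 1.5 times. Single-replicate differences, which had no test, instead lay within the within-group SD of the full value.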
